A study of Drosophila melanogaster with 6 samples.

Results

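The genes described here are those of the Dpp pathway of Drosophila melanogaster, the fly branch of bone morphogenetic protein (BMP) signalling. The members were taken from a list of 10 named genes, chosen by name and not by any measured value. Earlier results of these data were known when the list was chosen. Its genes were matched by FlyBase identifier to the 17612 genes of a table of RNA-seq counts. Of the 10, 9 were matched: the ligand genes dpp and gbb, the receptor genes tkv, sax and put, the co-receptor gene dally, the signal transducer gene Mad, the inhibitor gene Dad and the repressor gene brk. Med, which encodes the partner Smad of Mad, was not matched by its identifier and is not analysed here.

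The samples were leg discs of third-instar larvae, the epithelial sacs from which the adult legs form, with 20 discs in each library. One group, called Double, carries a deletion of PRE sequence. A PRE (Polycomb response element) is a stretch of DNA through which Polycomb group proteins hold genes repressed. The other group is wild type (WT). Which elements were deleted, and where, is not in the labels, and they give no strain, sex or further allele for either group. Each group had 3 libraries, and no label says whether these came from separate crosses or days, so that a p-value here reflects spread between libraries that may be partly technical.

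Dpp is a secreted protein that binds a complex of type I receptors, Thickveins and Saxophone, and the type II receptor Punt. The active receptors phosphorylate Mad, which enters the nucleus with its partner Medea, switches on targets such as Dad and, with the zinc-finger protein Schnurri, switches off brk. Brinker, the product of brk, is a repressor of Dpp target genes, so that the loss of Brinker is a main way in which the signal acts. In the leg disc dpp is transcribed mainly in a dorsal stripe along the boundary of the anterior and posterior compartments, opposite the ventral domain of wingless, and both signals together set up the proximo-distal axis.

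Total counts per library ranged from 10025174 to 11772621 in Double and from 8818943 to 13605668 in WT. All 17 leg disc markers examined were detected, with a summed expression of 4272 to 4449 CPM (counts scaled to a common library size with TMM factors) in Double and 4413 to 4524 CPM in WT. The leg gene dac, taken as the candidate target of the deletion from background knowledge since the labels name none, averaged 414.4 ± 4.38 CPM in Double and 598.2 ± 16.3 CPM in WT (SD, n = 3 each). It was lower in Double, with a log2 fold change of -0.53, an SE of 0.06 and an edgeR adjusted p of 0.003869. Summed fat body markers ranged from 3463 to 13790 CPM in Double and from 312.3 to 7037 CPM in WT, with WT replicate 1 the lowest. Of these 10 markers, 1, Adh, had no count in any library. The others did not move as one. Fbp2 averaged 11.8 CPM in Double and 137.7 CPM in WT, while every other tested fat body marker had a log2 fold change above 0. Over the 6 libraries Lpin and FASN1 varied 1.53 and 1.8 times, where the sum varied 44.2 times. Salivary gland markers summed to between 1257 and 3795 CPM in Double. In WT replicates 1, 2 and 3 they summed to 9.143, 77.72 and 3670 CPM, so that only WT replicate 3 lay within the Double range. Muscle and adepithelial cell markers lay at 213.9 to 237.9 CPM in Double and 245.7 to 282.3 CPM in WT, and haemocyte markers at 205.8 to 237.6 CPM in Double and 251.4 to 350.4 CPM in WT. In these last lists the groups did not overlap, and 2 of 12 tested muscle markers and 0 of 7 tested haemocyte markers were called lower by edgeR (4 muscle and 3 haemocyte markers stood at an unadjusted p under 0.05). The 2 called were up and Mp20, with log2 fold changes of -1.63 and -2.18. The muscle and adepithelial list did not move as one. Mef2, htl and Him had log2 fold changes of 0.09, 0.06 and 0.45, and its other genes had values below 0. For fat body, a fit with the summed markers as a covariate was run, and its values are given below where they differ by over 1.5 times. In that sum WT replicate 1, at 312.3 CPM, lay far below every other library, at 3463 CPM or more. The covariate fit and the fit without WT replicate 1 are therefore not independent checks. WT replicate 1 also had the lowest salivary gland sum, so the covariate does not isolate fat body. The part of the other tissues in the values was not tested. In whole discs fewer cells that express a gene cannot be told apart from less RNA per cell.

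None of the 9 Dpp pathway genes passed the test between Double and WT. Across all 8802 tested genes edgeR called 131 (1.49%) at an adjusted p under 0.05, 83 of them (0.943%) lower in Double. All 9 members were among the tested genes, and 0 of them were called by edgeR, by DESeq2 or by limma-voom. At an unadjusted p under 0.05 stood 2 members, sax and Mad, both with a higher mean in Double. The share of all tested genes at that level was 12.3%, with 5.99% higher and 6.27% lower in Double. The log2 fold changes of the 9 genes ran from -0.17 for gbb to 0.20 for sax, with a median of 0.07, where the median over all tested genes was 0.00. The median absolute log2 fold change was 0.07 over the members and 0.12 over all tested genes. The tested genes include genes of far fewer counts than any member, and no comparison at like abundance was made. Not reaching the threshold does not show that the levels were equal, and the size of difference that each gene's data leave room for is given below with each interval.

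**Figure D1:**
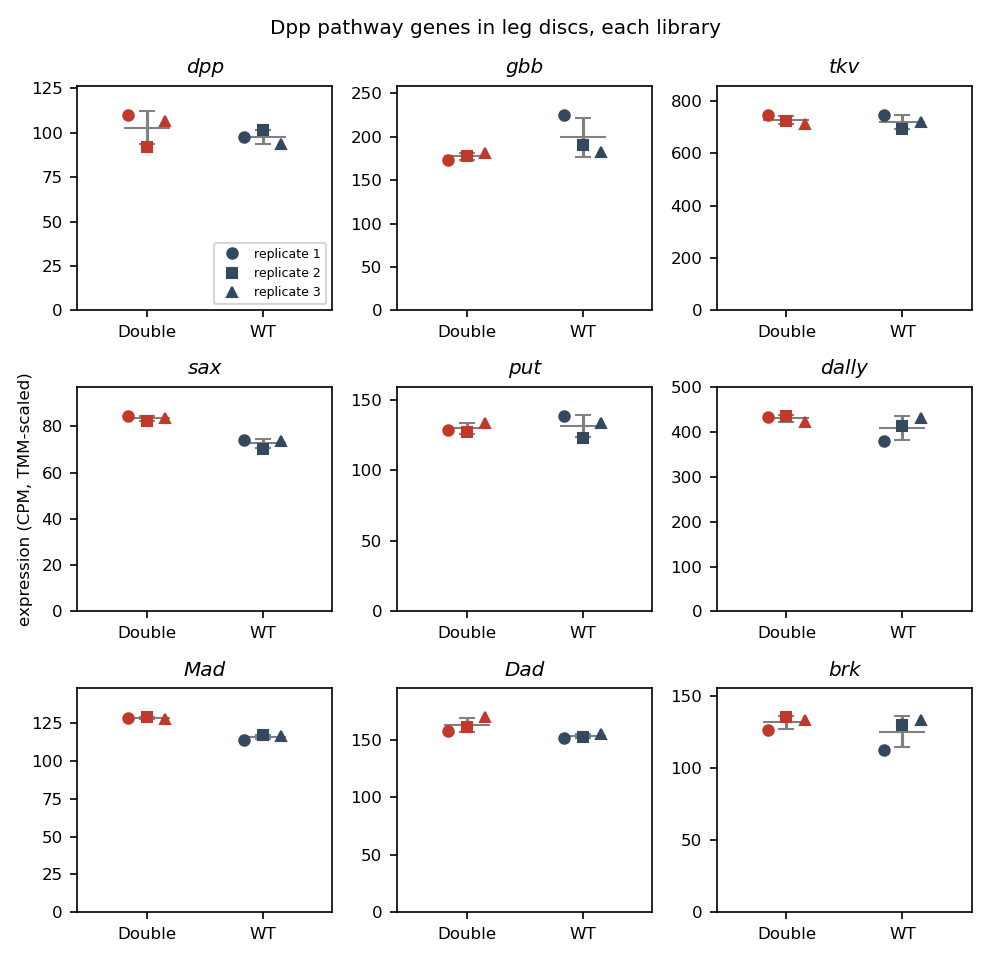
Expression of the 9 matched Dpp pathway genes in CPM (y axes start at 0), with the Double libraries in red on the left and the WT libraries in dark blue on the right of each panel. Symbols stand for the replicate number, and the grey bar and whiskers for the mean and SD of 3 libraries. The Double points of sax and Mad lie above those of WT with little spread, while gbb is highest in WT replicate 1, at 224.5 CPM.

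The ligand gene dpp (FBgn0000490) lies on chromosome arm 2L at 2428372 to 2459823 on the plus strand (dm6). It read 109.8, 92.2 and 106.3 CPM in Double replicates 1, 2 and 3, against 97.8, 101.4 and 93.7 CPM in WT replicates 1, 2 and 3. The groups overlapped, since the lowest library of all was Double replicate 2 and the highest Double replicate 1. The mean was 102.8 ± 9.32 CPM in Double and 97.6 ± 3.85 CPM in WT (SD, n = 3 each), which gave a log2 fold change of 0.07 (SE 0.08; edgeR adjusted p = 0.7406). Its 95% interval ran from -0.11 to 0.26, which corresponds to a Double level between -7.15% and 19.4% relative to WT. With Double replicate 2 left out the value for dpp was 0.15, and with Double replicate 1 left out it was 0.02. It was 0.04 with WT replicate 3 or Double replicate 3 left out and also with the fat body covariate.

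The second ligand gene, gbb (FBgn0024234), encodes Glass bottom boat, a more widely transcribed BMP that can pair with Dpp. It lies on 2R at 23851562 to 23853247 on the plus strand. gbb stood at 172.8, 178.0 and 180.7 CPM in the Double libraries and at 224.5, 190.5 and 182.4 CPM in the WT libraries, in replicate order. All Double values lay below all WT values, but the gap between the closest libraries, Double replicate 3 and WT replicate 3, was small beside the spread within WT. With a mean of 177.1 ± 3.99 CPM in Double and 199.1 ± 22.4 CPM in WT (SD, n = 3 each), the log2 fold change of gbb was -0.17 (SE 0.09; 95% interval -0.37 to 0.03; edgeR adjusted p = 0.4763). Without WT replicate 1, the library with the lowest fat body markers, it was -0.07, as it was with the fat body covariate.

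Of the type I receptor genes, tkv (FBgn0003716), on 2L at 5219000 to 5271384 on the minus strand, encodes Thickveins, the main receptor of Dpp. Its CPM were 746.0, 724.8 and 713.9 in Double replicates 1 to 3 and 745.3, 692.9 and 721.6 in WT replicates 1 to 3. These ranges covered nearly the same values, and over the 6 libraries together tkv varied least of the 9 genes, with the highest library 1.08 times the lowest. Its log2 fold change was 0.02 (SE 0.06; 95% interval -0.13 to 0.16; edgeR adjusted p = 0.941), and 0.04 with the fat body covariate. In percent, the interval of tkv left room for a Double level between -8.5% and 11.8% relative to WT. Exons of tkv share 54 bases with TpnC25D and 158 bases with CR14033 on the opposite strand, genes that had at most 11 and 8 counts in any library.

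The other type I receptor gene, sax (FBgn0003317), encodes Saxophone, which responds mainly to Gbb. It lies on 2R at 7806484 to 7810067 on the plus strand. sax read 84.3, 82.4 and 83.5 CPM in Double and 74.1, 70.3 and 73.4 CPM in WT, in replicate order. Every Double library was above every WT library, and the group means of 83.4 ± 0.941 CPM in Double and 72.6 ± 2.05 CPM in WT (SD, n = 3 each) were several SDs apart. The log2 fold change of 0.20 (SE 0.06) was the largest of the 9 genes, and its 95% interval of 0.06 to 0.34 did not include 0. After adjustment over all tested genes sax did not pass (edgeR adjusted p = 0.2125), nor in any of 14 alternative settings, where its log2 fold change stayed between 0.18 and 0.22 and its adjusted p between 0.1709 and 0.5177.

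The type II receptor gene put (FBgn0003169), on 3R at 14619030 to 14625703 on the minus strand, encodes Punt, a receptor that BMP and Activin ligands share. It read 128.3, 126.8 and 133.8 CPM in Double replicates 1, 2 and 3, and 138.2, 122.5 and 133.3 CPM in WT replicates 1, 2 and 3. The lowest and the highest library were both WT, so that the Double values lay inside the WT range. For put the log2 fold change was -0.02 (SE 0.07; 95% interval -0.17 to 0.13; edgeR adjusted p = 0.9323).

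The gene dally (FBgn0263930), on 3L at 8827505 to 8891192 on the plus strand, encodes a glypican, a heparan sulfate proteoglycan of the cell surface that binds Dpp and shapes its spread. In Double it stood at 434.7, 435.5 and 421.9 CPM, against 381.4, 414.5 and 432.7 CPM in WT, in replicate order. The groups overlapped through WT replicate 3. Its log2 fold change was 0.07 (SE 0.07; 95% interval -0.08 to 0.23; edgeR adjusted p = 0.7069), and 0.02 without WT replicate 1, which was its lowest library. It was 0.03 with the fat body covariate and 0.11 without WT replicate 3.

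Mad (FBgn0011648), on 2L at 3146056 to 3159643 on the minus strand, encodes the Smad that the receptors phosphorylate. Within each group it had the tightest values of the 9 genes, at 127.9, 128.6 and 127.8 CPM in Double and 113.8, 116.6 and 116.1 CPM in WT, in replicate order. No Double library came near a WT library. The means were 128.1 ± 0.452 CPM in Double and 115.5 ± 1.49 CPM in WT (SD, n = 3 each), a difference of 10.9% of the WT mean. The log2 fold change of Mad was 0.15 (SE 0.05; 95% interval 0.03 to 0.27), and the adjusted p was 0.3089 in edgeR's quasi-likelihood test, which draws the error of each gene towards that of genes of like abundance. Across the 14 alternatives it stayed between 0.14 and 0.16 and the adjusted p between 0.2795 and 0.641.

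Dad (FBgn0020493), on 3R at 17054007 to 17070408 on the plus strand, encodes an inhibitory Smad that is itself induced by Dpp signalling and is widely used as a readout of it. Its values were 157.9, 161.3 and 169.7 CPM in Double replicates 1 to 3 and 151.5, 153.0 and 155.5 CPM in WT replicates 1 to 3. All Double libraries were above all WT libraries, but the gap between the closest of them was smaller than the spread within Double. For Dad the log2 fold change was 0.09 (SE 0.06; 95% interval -0.05 to 0.22; edgeR adjusted p = 0.5888), and 0.05 without Double replicate 3, its highest library.

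The gene brk (FBgn0024250), on X at 7307939 to 7311132 on the plus strand, encodes the repressor that Dpp signalling switches off. It read 126.3, 135.1 and 133.2 CPM in Double and 112.7, 129.4 and 133.0 CPM in WT, in replicate order. Outside WT replicate 1, the lowest library, the 5 values lay close together. The log2 fold change of brk was 0.07 (SE 0.08; 95% interval -0.10 to 0.25; edgeR adjusted p = 0.7357), and without WT replicate 1 it was 0.004. It was 0.01 with the fat body covariate and 0.11 without WT replicate 3.

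**Figure D2:**
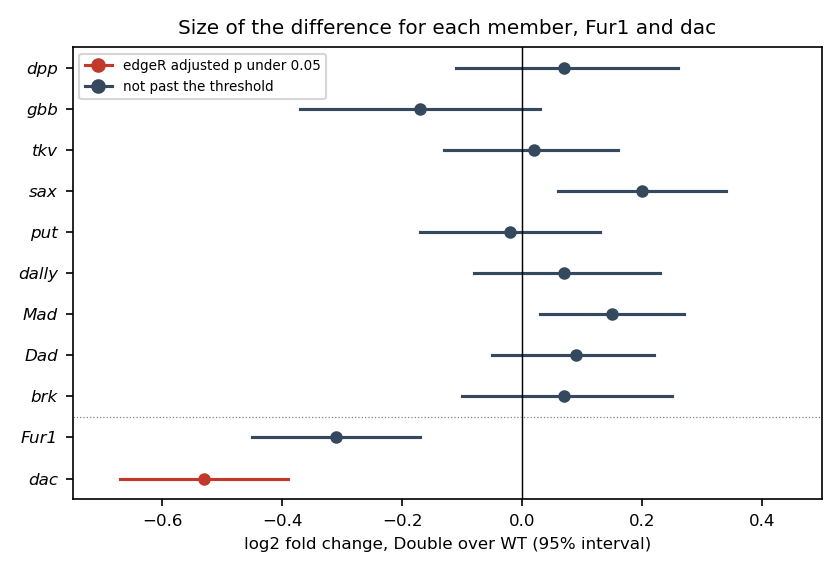
Log2 fold change of Double over WT (x axis) with its 95% interval for each of the 9 genes and, below the dotted line, for Fur1 and dac. The intervals of sax (0.06 to 0.34) and Mad (0.03 to 0.27) leave out 0, no member passed the adjusted threshold, and dac, in red, did.

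Counted over the members, all Double libraries lay above all WT libraries in 3 of 9 genes, sax, Mad and Dad, against 10.3% of all tested genes. They lay below in 1 of 9, gbb, against 9.11% of all tested genes. Above 0 stood the log2 fold changes of 7 of 9 members and of 50.1% of all tested genes. In the highest of the 6 libraries a member read 1.08 to 1.30 times its lowest library, with a median of 1.14, where the median over all tested genes was 1.33. Those genes were not matched to the members in abundance, and genes of few counts vary more through counting error. On 2L, the arm that carries dac, dpp, Mad and tkv lie 14.04, 13.32 and 11.25 Mb from it.

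Levels of different genes were compared as RPKM, the CPM divided by the exonic length of the gene in kilobases. The order of the mean levels was the same in Double and in WT. tkv was highest, at 164.0 ± 3.68 RPKM in Double and 162.0 ± 5.91 RPKM in WT (SD, n = 3 each). It was followed by gbb, at 105.0 ± 2.37 RPKM in Double and 118.0 ± 13.3 RPKM in WT, and by dally, at 96.1 ± 1.71 RPKM in Double and 91.4 ± 5.81 RPKM in WT. A wide step separated these from Dad, brk, Mad and put, with means of 41.7, 41.2, 37.6 and 32.3 RPKM in Double and 39.3, 39.1, 33.9 and 32.7 RPKM in WT, in that order. Over the 6 libraries the neighbours in the order from Dad to put overlapped, while the libraries of the other neighbouring genes did not. Below them stood sax, at 29.1 RPKM in Double and 25.3 RPKM in WT. dpp was the lowest of the 9, at 19.7 ± 1.79 RPKM in Double and 18.7 ± 0.738 RPKM in WT (SD, n = 3 each). RPKM in a whole disc averages over all cells, and the labels give no part of the disc. With the length of the longest transcript in place of all exonic bases, a choice made after seeing the data, the order was the same.

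**Figure D3:**
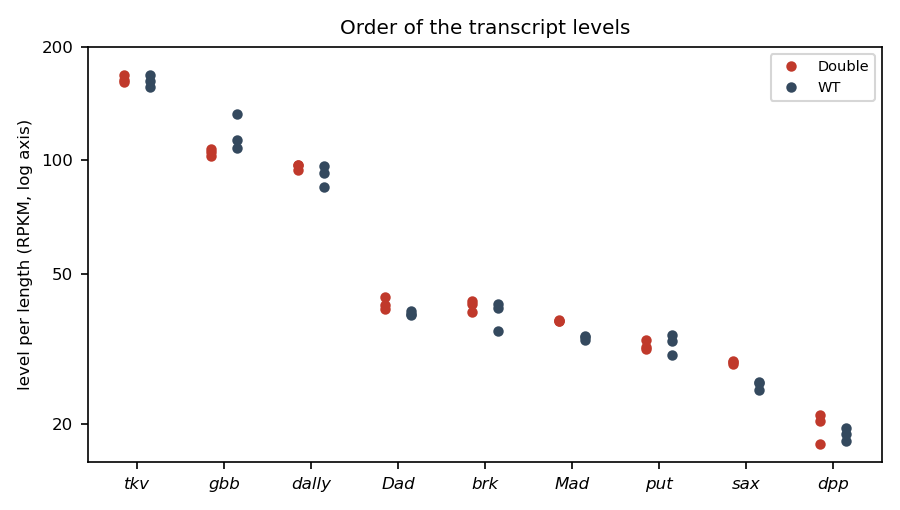
Level per length of each gene (RPKM, log axis) in every library, with Double in red left of WT in dark blue and the genes ordered by their mean in Double. The tkv points lie highest, at 156.3 to 168.3 RPKM, and the dpp points lowest, at 17.7 to 21.1 RPKM.

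Ratios of RPKM within a library do not depend on its scaling. gbb exceeded dpp 4.87, 5.97 and 5.25 times in Double replicates 1, 2 and 3 and 7.10, 5.81 and 6.02 times in WT replicates 1, 2 and 3, with overlapping groups. The type I receptor tkv exceeded sax by 5.72, 5.68 and 5.53 times in Double, against 6.5, 6.37 and 6.35 times in WT. This was the one of 7 ratios computed in which the groups did not overlap, and it carries the same sax values as above. Between the target that Dpp induces and the target that it represses, the ratio of Dad to brk averaged 1.01 ± 0.0337 in Double and 1.01 ± 0.0796 in WT (SD, n = 3 each). The ratio of tkv to put averaged 5.09 ± 0.228 in Double and 4.97 ± 0.132 in WT, and these groups overlapped as well.

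Around the members, 65 further genes of the pathway in 5 lists were read from the same fit, and 61 of them were tested. edgeR called 1 of these, dac, which was lower and is the gene taken above as the candidate target of the deletion. At an unadjusted p under 0.05 stood 7 of them, 2 higher and 5 lower in Double. The share of all tested genes at that level was 12.3%. The median log2 fold change of the 61 genes was 0.05. All Double libraries lay above all WT libraries in 10 of the 61 and below in 6, where the shares over all tested genes were 10.3% and 9.11%.

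Among the other ligands of the family, scw, a partner of Dpp in the embryo, had no count in any of the 6 libraries, which allows up to 0.0453 CPM over all of them (3 counts of the summed total, counting error only). None of the 4 tested ligand genes was called by edgeR, and 0 stood at an unadjusted p under 0.05. daw, which encodes an Activin-like ligand, read 57.0, 26.1 and 38.0 CPM in Double and 28.8, 27.2 and 25.6 CPM in WT, in replicate order (log2 fold change 0.57, SE 0.28; edgeR adjusted p = 0.4791). Double replicate 1 was by far the highest for daw and also had the largest sum of fat body markers. In WT replicates 1 and 2, with fat body sums of 312.3 and 7037 CPM, daw read 28.8 and 27.2 CPM. The cause of the spread in daw was not tested. Without that library the log2 fold change of daw was 0.22, and with the fat body covariate it was 0.45 (edgeR adjusted p = 0.7329). Actbeta averaged 1.98 ± 0.607 CPM in Double and 3.43 ± 1.84 CPM in WT, and mav 143.6 ± 3.05 CPM in Double and 151.5 ± 9.20 CPM in WT (SD, n = 3 each). Both had groups that overlapped. The log2 fold change of Actbeta was -0.79, and -0.27 without WT replicate 3, its highest library.

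The list of extracellular modulators held antagonists, proteases, heparan sulfate enzymes and collagens that bind Dpp, with 20 of 22 genes tested and 0 called by edgeR; 1, Fur1, stood at an unadjusted p under 0.05. Fur1 encodes a furin protease, of the kind that cuts BMP precursors such as that of Dpp into the mature ligand. It read 104.3, 101.7 and 108.4 CPM in Double replicates 1 to 3, against 123.9, 135.0 and 130.9 CPM in WT replicates 1 to 3. The groups were well apart, with means of 104.8 ± 3.4 CPM in Double and 129.9 ± 5.61 CPM in WT (SD, n = 3 each), a difference of -19.3% of the WT mean. The log2 fold change of Fur1 was -0.31 (SE 0.06; 95% interval -0.45 to -0.17), and with an edgeR adjusted p of 0.05686 it lay just outside the threshold. In 4 of the 14 alternatives Fur1 was called lower, and its adjusted p over all of them ran from 0.007838 with DESeq2 to 0.2173. The related protease gene Fur2, chosen after its values were seen, averaged 285.8 CPM in Double and 263.5 CPM in WT (log2 fold change 0.12; edgeR adjusted p = 0.5695). kek5, which encodes a transmembrane protein that modulates BMP signalling, averaged 319.6 CPM in Double and 289.2 CPM in WT, and cv-2, which encodes a BMP-binding protein, 53.7 CPM in Double and 46.6 CPM in WT. Their log2 fold changes of 0.14 and 0.21 did not pass (edgeR adjusted p = 0.4272 and 0.4791). For cv-2 it was 0.12 without Double replicate 3, and 0.13 both without WT replicate 1 and with the fat body covariate.

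The 3 remaining receptor and Smad genes, chiefly of the Activin branch, had log2 fold changes of 0.12 to 0.14, and 0 were called by edgeR or stood at an unadjusted p under 0.05. babo, which encodes the type I Activin receptor, averaged 210.6 ± 2.39 CPM in Double and 192.6 ± 9.30 CPM in WT. Smox, the Activin-branch Smad gene, averaged 206.3 ± 3.43 CPM in Double and 189.3 ± 8.71 CPM in WT, and wit, a second type II receptor gene, 107.5 ± 7.25 CPM in Double and 97.5 ± 4.22 CPM in WT (SD, n = 3 each). In all 3 genes the Double libraries lay above the WT libraries, against 10.3% of all tested genes. In wit, however, the lowest Double and the highest WT library both read 100.37 CPM. The log2 fold change of wit was 0.14, and 0.08 without Double replicate 1 or 0.09 with the fat body covariate. Exons of wit share 9.49% of their bases with dib on the opposite strand, which had 18 to 36 counts in Double and 22 to 43 counts in WT.

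Of 14 tested intracellular regulators, 0 were called by edgeR and 1, spict, stood at an unadjusted p under 0.05. spict, which encodes an endosomal protein that limits BMP receptor levels at the neuromuscular junction, averaged 29.8 ± 1.49 CPM in Double and 35.7 ± 2.24 CPM in WT (SD, n = 3 each; log2 fold change -0.26; edgeR adjusted p = 0.261). shn, which encodes Schnurri, read 207.8, 213.5 and 221.4 CPM in Double and 145.5, 189.3 and 211.3 CPM in WT, in replicate order. WT replicate 1 was again the lowest, and the log2 fold change of shn was 0.10 without it and 0.10 with the fat body covariate, against 0.24 with all libraries (edgeR adjusted p = 0.5088). Smurf, which encodes a ubiquitin ligase that targets Mad, averaged 183.2 ± 2.0 CPM in Double and 167.4 ± 14.4 CPM in WT (SD, n = 3 each; log2 fold change 0.13; edgeR adjusted p = 0.5306). It was 0.07 both without WT replicate 1 and with the fat body covariate.

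All 20 genes in the list of Dpp targets were tested, and their median log2 fold change was 0.01 and their mean -0.14. The list pools genes that Dpp induces with genes that it holds off, such as mid, so these signed values do not measure Dpp activity. Its largest falls were those of tup, pnr and salr (salr is named after its values were seen), at -0.97, -0.79 and -0.78. The group means of tup, pnr and salr were low, between 2.34 and 8.94 CPM. WT replicate 3 was the highest library for tup and salr, at 6.88 and 14.12 CPM, and the groups of salr overlapped. The largest rise in the list was that of Doc3, at 0.32 (edgeR adjusted p = 0.4434), also named after its values were seen. dac, taken above as the candidate target of the deletion, was called lower, the only call. The log2 fold change of dac lay between -0.55 and -0.51 in all 14 alternatives. Without Double replicate 3 it was still -0.53, but the edgeR adjusted p of 0.05363 lay just above the threshold. Of the 5 at an unadjusted p under 0.05 dac, pnr and tup were lower in Double, and mid and Dll higher (tup and Dll are named after their values were seen). pnr, which encodes a GATA factor of dorsal cells, stood at 4.74, 4.25 and 5.47 CPM in Double and 9.59, 6.45 and 8.87 CPM in WT, in replicate order (log2 fold change -0.79, SE 0.24; edgeR adjusted p = 0.2125). The T-box gene mid, which acts in the ventral leg and is held off dorsally by Dpp, averaged 158.5 ± 6.97 CPM in Double and 136.2 ± 9.73 CPM in WT (SD, n = 3 each; log2 fold change 0.22; edgeR adjusted p = 0.2577). Further targets were picked for their place in the leg after their values were seen. bi, the dorsal target also called optomotor-blind, averaged 147.9 CPM in Double and 137.1 CPM in WT. The ventral genes wg and H15 averaged 109.6 and 98.9 CPM in Double, against 106.1 and 104.3 CPM in WT. Dll, which depends on Dpp and Wg together at the centre of the disc, averaged 391.9 CPM in Double and 332.0 CPM in WT. Of these 4 genes edgeR called 0, with adjusted p of 0.6029, 0.8814, 0.6408 and 0.2922 for bi, wg, H15 and Dll, and only Dll stood at an unadjusted p under 0.05.

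**Figure D4:**
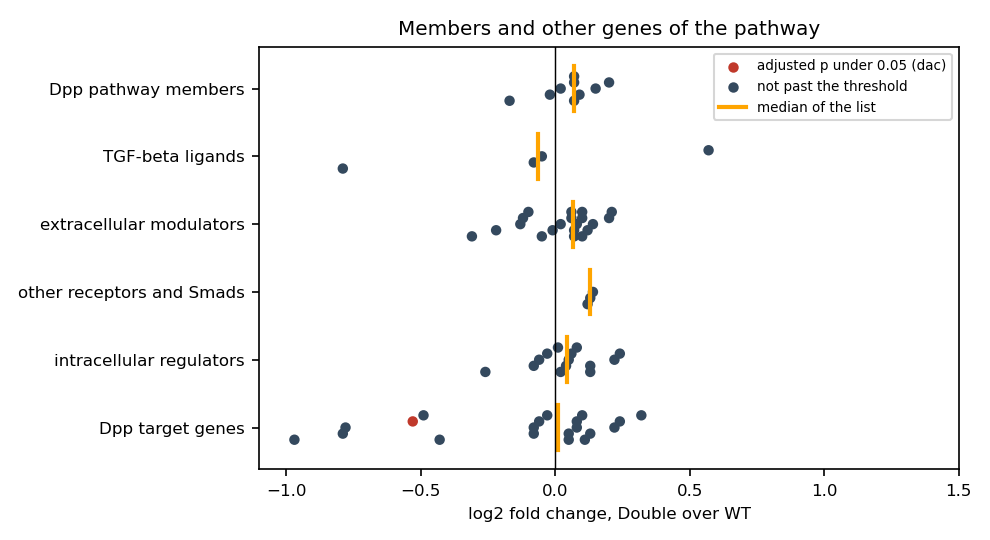
Log2 fold change of Double over WT (x axis) for the tested genes of the member list and of 5 further lists of pathway genes, 1 point a gene, with the median of each list as an orange bar. The members lie between -0.17 and 0.20, and dac, in red, is the only gene past the threshold.

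The 3 genes whose values followed those of dpp most closely over the 6 libraries were CG1998, Mvb12 and CG11737. Likeness was measured as the root mean square difference between the log2 CPM of the genes, each centred on its own mean, and it was 0.0296 for CG1998, 0.0314 for Mvb12 and 0.0345 for CG11737. Among the other members the closest to dpp was Dad, at 0.0916, and the farthest gbb, at 0.17. All 9 members varied little, and this measure is small between any genes of little variation.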

How the data were processed

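The deposited table holds counts per gene, whole numbers that are not normalized. The submitters' processing notes list dm6 as the build and STAR 2.7.0, HTSeq and DESeq2 as tools, without their roles. Libraries were strand-specific, per the labels' protocols. The counting's strand setting and annotation were not given in the sources used here. Reads of genes that overlap on opposite strands may therefore be mixed. Symbols, positions and lengths come from Ensembl release 115 (BDGP 6.54, dm6 coordinates), which named 17540 of 17612 identifiers; 72 kept their identifiers.

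Double was compared with WT with edgeR 4.0.16 (R 4.3.3; glmQLFit and glmQLFTest, robust) on all 6 libraries, with TMM factors, filterByExpr, group as the only term and Benjamini-Hochberg adjustment over the 8802 tested genes. A gene was called at an adjusted p under 0.05. SE is the log2 fold change divided by the square root of F, and intervals are 95%. No replicate pair agreed within sampling noise (chi-square of 9.47 to 39.1 for each degree of freedom), so each counted once; 1 count equals 0.0735 to 0.113 CPM. On simulated data for this comparison (8802 genes, 200 changed in each of 5 runs) 44.2% of 1.5-fold rises, 40.6% of 1.5-fold falls, 72.4% of 2-fold rises and 61.2% of 2-fold falls were called, and 8.6% of calls were false.

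The members and lists were chosen with earlier results of these data known. Named genes are the members, each called gene of the 5 other lists, the genes of smallest p up to 3 per list, and the 3 genes most like dpp. Alternatives were RLE factors, library totals, no count filter, DESeq2 1.42.0, limma-voom (limma 3.58.1), a stricter filter (CPM of 1 or more in 3 libraries), the replicate number as a block, a fat body covariate and each library left out. Figures used Python 3.11.15 and matplotlib 3.10.9.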

Additional observations from a re-analysis of the deposited data

How the results depend on the processing

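Under each of the 14 alternatives 0 of 9 members were called. Their log2 fold changes kept their sign except for tkv, at -0.01 to 0.04 when single libraries were left out (below 0 without WT replicate 2 and without Double replicate 1), and put, at -0.07 to 0.02 when single libraries were left out and 0.02 with the fat body covariate. The cause was not tested. Mvb12 had -0.01 to 0.10 with single libraries left out. Of the other pathway genes 1 was called in the main setting, 2 (dac and Fur1) with no count filter, with DESeq2 and with the fat body covariate, and 0 to 2 with single libraries left out. Fur1 was called without WT replicate 1 (edgeR adjusted p = 0.02362), and none of the other pathway genes was called without Double replicate 3. Over all genes the 131 calls were 293 with DESeq2, and 46 to 157 with single libraries left out, which also leaves fewer samples. The replicate block gave 166 calls over all genes and 0 among the members. The labels do not say that the numbers pair the libraries. Deviations from the group mean correlated at -0.07, -0.25 and 0.39 between same-numbered libraries, and at -0.45 to 0.42 between differently numbered ones. Since they are centred within groups of 3 libraries, these correlations cannot settle the pairing. Each member had between 621 and 10108 counts in every library, while pnr had 47 to 130 and Actbeta 18 to 61 counts, so that the depth limits those genes more than the members.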
